A study of Arabidopsis thaliana with 8 samples.

Results

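The comparison described here set seedlings of the npr1-1 mutant of Arabidopsis thaliana against wild-type Col-0 seedlings when both had received water in place of salicylic acid (SA). It used 4 of the 8 arrays of the series, 2 biological replicates of each genotype, picked by the deposited labels, and the other 4 arrays held the same genotypes under 2 mM SA. RNA came from complete seedlings that were 2 weeks old and had spent 24 h in fresh water or SA. The npr1-1 line stands for a single mutant allele and Col-0 carries no introduced allele. Each array gave 1 log2 value per probe set on the Affymetrix ATH1 array, and a difference is npr1-1 minus Col-0 on that scale, so that a difference of 1 is a doubling of signal.

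SA is the hormone that drives defense against pathogens feeding on living tissue, and NPR1 is the coactivator through which much of its transcriptional output runs, together with TGA factors. In unstressed cells NPR1 is held largely in the cytoplasm, and SA and jasmonate signaling restrain each other in a crosstalk in which NPR1 takes part. A mutant compared with the wild type in water would show the state from which each genotype meets SA, provided that the labels hold.

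The arrays of a genotype lay close together in water, with a Pearson correlation over probe sets of 0.996 in Col-0 and 0.995 in npr1-1. Between the genotypes in water it was 0.958 to 0.961. Col-0 water correlated about as highly with the arrays labelled npr1-1 SA, at 0.960 to 0.963. Col-0 SA correlated at 0.957 to 0.959 with npr1-1 water and at 0.922 to 0.925 with npr1-1 SA. Array medians in water were 1.38 and 1.38 in Col-0 and 1.43 and 1.45 in npr1-1. The leaf transcripts PSAN and LHCB4.1 were between 8.27 and 9.14, whereas the root hair expansins EXPA7 and EXPA18 were between 0.54 and 0.98 and the 4 flower and pollen markers were between 0.02 and 0.71 on the water arrays. RNA of whole seedlings cannot tell fewer cells of a type from less RNA per cell.

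The labels of the npr1-1 arrays need care before any direction is read. GRX480, a glutaredoxin gene known to respond to SA, was at 6.87 and 6.67 in Col-0 water and at 8.02 and 7.93 in Col-0 SA. On the arrays labelled npr1-1 it was at 7.85 and 7.97 in water and at 3.06 and 3.05 in SA. Thus the arrays labelled npr1-1 water resembled Col-0 SA for this gene, and those labelled npr1-1 SA lay below every other array. Whether water and SA were exchanged between the npr1-1 arrays was not tested, and NPR1 itself is not analysed here. No label was changed, and every direction below holds only for the groups as labelled. As a description chosen after the values were seen, the arrays labelled npr1-1 SA were also set beside Col-0 water. Of the 12 genes with the largest rises described below, 7 then had a lower and 5 a higher mean than Col-0 water, by -1.82 for UGT76B1 and -0.69 for AT3G28510 up to 0.60 for AT5G51830. All 12 genes with the largest falls had a lower mean there too, by -3.91 for JRG21 to -0.41 for AT1G62510. The same Col-0 water arrays had served to pick these genes, which favours a lower mean for the falls and a higher one for the rises. The share of all genes that lay lower there was not counted.

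In water the genotypes differed at many genes in both directions. Of 22746 probe sets, 6134 (27.0%) were called at an adjusted p under 0.05 in limma's fit, with 3238 (14.2%) higher and 2896 (12.7%) lower in npr1-1. A difference of at least 1 was reached by 812 probe sets that were higher and 1034 that were lower. The median difference over all probe sets was 0.01. Among the 13356 genes that have a probe set named in the annotation, 3181 (23.8%) were called, 1752 (13.1%) higher and 1429 (10.7%) lower. In every called gene the 2 npr1-1 arrays lay apart from the 2 Col-0 arrays, which a call with 2 arrays per group nearly requires. Calls were more frequent among brighter genes. Of the 3637 genes with a mean of at least 3 over the 8 arrays, 25.8% were higher and 23.7% lower. The shares of all genes set beside the lists below are therefore low for lists of bright genes.

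**Figure D1:**
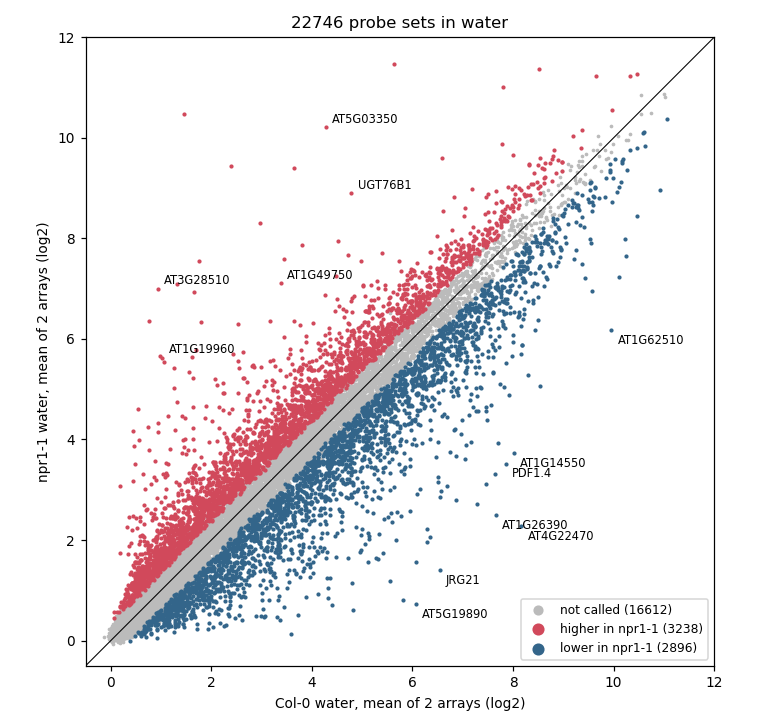
Each point is a probe set, with its mean over the 2 Col-0 water arrays on the x axis and over the 2 npr1-1 water arrays on the y axis, both in log2. Red points (3238) were higher and blue points (2896) lower in npr1-1, grey points were not called, the line marks equal levels, and 12 of the 24 genes with the largest differences are named.

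The largest difference of a named gene was that of AT3G28510. It was at 0.66 and 1.20 in Col-0 and at 6.94 and 7.05 in npr1-1, a difference of 6.07 (SE 0.18, adjusted p = 1.5e-09). Hence a transcript near the lower end of the scale in the wild type was in the upper part of it in the mutant. AT5G03350 followed, at 4.47 and 4.10 in Col-0 and at 10.23 and 10.18 in npr1-1, a difference of 5.92 (SE 0.15). AT1G19960 was at 1.11 and 0.94 in Col-0 and at 5.52 and 5.73 in npr1-1. Both genes were far above the wild type on each mutant array. UGT76B1, a glucosyltransferase that conjugates defense signals including SA, was at 4.71 and 4.87 in Col-0 and at 8.88 and 8.92 in npr1-1 (difference 4.11, SE 0.12, adjusted p = 1.5e-09). The remaining 8 of the 12 largest rises had differences from 3.33 to 4.53 and were AT5G55450, AT2G32160, AT5G52540, AT1G67865, AT5G44570, AT1G49750, AT1G17430 and AT5G51830. Only genes whose arrays lay apart were ranked, so by this choice no Col-0 array reached an npr1-1 array. In all, 22 probe sets were higher by at least 4, and 7 of the genes named here were among them. Probe sets without a gene name of their own are counted in the totals and are not described.

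The largest fall was that of AT4G22470, which was at 8.11 and 8.23 in Col-0 and at 2.13 and 2.41 in npr1-1 (difference -5.90, SE 0.13, adjusted p = 2.3e-10). AT5G19890 was at 5.95 and 6.18 in Col-0 and at 0.78 and 0.68 in npr1-1. AT1G26390 was at 7.62 and 7.70 in Col-0 and at 2.54 and 2.45 in npr1-1. These 3 genes were well above the array median on both wild-type arrays, and of them AT5G19890 was under the median on both mutant arrays. JRG21, named for its regulation by jasmonate, was at 6.54 on both Col-0 arrays and at 0.96 and 1.84 in npr1-1 (difference -5.14, SE 0.22). PDF1.4, a defensin-like gene, was at 7.82 and 7.90 in Col-0 and at 3.43 and 3.60 in npr1-1. BGLU46, a beta-glucosidase that acts on monolignol glucosides, was at 7.72 and 7.70 in Col-0 and at 4.08 and 3.79 in npr1-1. Of these, JRG21 had the widest gap between its mutant arrays, and that gap was small beside the genotype difference. AT1G62510 was among the brightest genes of Col-0, at 10.04 and 9.87, and was at 6.20 and 6.15 in npr1-1. The other 5 of the 12 largest falls were AT4G22212, AT3G61390, AT2G47550, AT4G16260 and AT1G14550, with differences from -4.49 to -4.29.

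**Figure D2:**
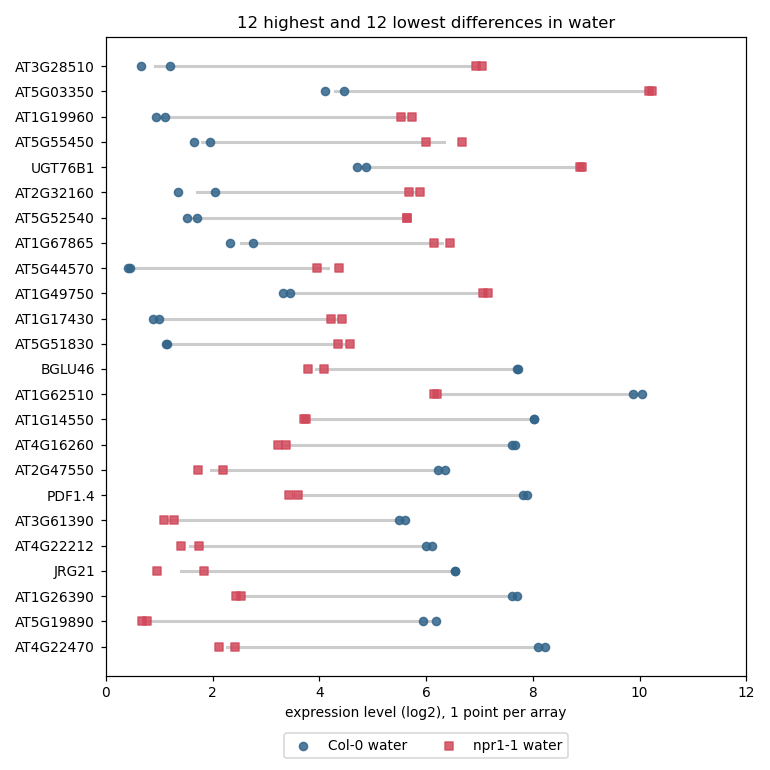
Log2 levels of the 12 genes with the largest positive and the 12 with the largest negative difference in water are shown, with 1 point per array (circles for the 2 Col-0 arrays, squares for the 2 npr1-1 arrays) and a grey bar between the group means. In all 24 genes the circles and squares lie apart, as the choice of these genes required, from a difference of 6.07 for AT3G28510 to -5.90 for AT4G22470.

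Most of these genes carry only a locus code, so the largest differences among genes with a descriptive name are also given, and this choice was made after the values were seen. On the higher side they included ECS1, a cell wall protein gene, at 8.62 and 8.42 in Col-0 and at 11.40 and 11.32 in npr1-1. CSA1, an intracellular immune receptor of the TIR class, was at 2.68 on both Col-0 arrays and at 4.51 and 4.68 in npr1-1. RING1, an E3 ubiquitin ligase linked to cell death, was at 3.17 and 3.36 in Col-0 and at 5.56 and 5.36 in npr1-1. Their differences were 2.84, 1.92 and 2.20, and their shared direction was set by the choice of genes. PMEPCRF, a pectin methylesterase (2.62), ENGase85A, an endoglycosidase acting on N-glycans (2.19), and QQS, an orphan gene that affects starch content (1.92), were higher as well.

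On the lower side, ChiC, a class V chitinase, was at 5.37 and 5.31 in Col-0 and at 2.30 and 1.92 in npr1-1. OSM34, an osmotin-like protein gene, was at 10.20 and 10.30 in Col-0 and at 7.70 and 7.61 in npr1-1. ORA47, an AP2/ERF factor that activates jasmonate synthesis, was at 7.36 and 7.25 in Col-0 and at 4.59 and 4.53 in npr1-1. Their differences were -3.23, -2.60 and -2.75, and their shared direction was set by how these genes were chosen. DLAH, a DAD1-like lipid acylhydrolase (-3.07), CCOAMT, a caffeoyl-CoA methyltransferase-like gene (-3.14), and SBT4.12, a subtilase (-2.40), were lower too. CCL, a gene of light-regulated and unstable mRNA, was at 8.45 and 8.43 in Col-0 and at 6.01 and 6.32 in npr1-1.

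Genes of SA metabolism and signaling moved in both directions. The annotation named 8 of the 34 genes on this list. Of these, 3 were higher, 2 lower and 3 not called, against 13.1% higher and 10.7% lower among all genes. The median difference was 0.10, against 0.02 over all genes. Coverage was partial here and on the other lists, since the annotation names only part of the probe sets. Besides UGT76B1 and GRX480 (difference 1.14, SE 0.12), AT5G52810 was higher, at 3.17 and 2.94 in Col-0 and at 5.10 and 5.03 in npr1-1. WES1, a GH3 enzyme that joins amino acids to auxin and SA, was lower, at 8.15 and 8.05 in Col-0 and at 6.53 and 6.34 in npr1-1. SAG101, a partner of EDS1 in immune signaling, was lower as well, at 4.28 and 4.34 in Col-0 and at 3.62 and 3.25 in npr1-1. The SA glucosyltransferase gene UGT74F1 (0.40 and 0.42 against 0.57 and 0.62) and the SA methyltransferase gene BSMT1 (0.24 and 0.23 against 0.23 and 0.29) were near the lower end of the scale in both genotypes. No TGA factor had a probe set named here.

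The annotation named 8 of the 37 genes on the jasmonate list, and those that were called were all lower. Of 8 measured genes on this list, 4 were lower and none higher, against 10.7% and 13.1% of all genes, and the median difference was -0.57. AT2G38240 was at 5.14 and 4.77 in Col-0 and at 1.73 and 1.80 in npr1-1 (difference -3.19, SE 0.17, adjusted p = 1.3e-07). AT5G05600 was at 8.07 and 8.17 in Col-0 and at 7.01 and 7.09 in npr1-1. Together with JRG21 these genes were lower on both mutant arrays, and the defensin gene PDF1.2b was lower near the lower end of the scale (1.44 and 1.71 against 0.42 and 0.58, on a probe set whose name marks possible cross-hybridization). The other 4, among them PDF1.2, THI2.1 and the jasmonate methyltransferase gene JMT, were at or under 0.54 on all 4 arrays, where a fall could hardly show.

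WRKY factors bind W-box promoter elements in defense, and 7 of 72 were measured. Of these, 1 was higher and 3 lower, against 23.8% of all genes called in either direction. All of the called ones were among the 5 with a mean of at least 3 over the 8 arrays. At that level 25.8% of all genes were higher and 23.7% lower. WRKY22, which acts in the immune response to flagellin, was at 7.90 and 7.67 in Col-0 and at 6.30 and 6.41 in npr1-1. WRKY6, a factor of senescence and phosphate responses, was at 5.12 and 5.19 in Col-0 and at 4.02 and 4.03 in npr1-1. WRKY47 was lower too (-1.22) and WRKY20 higher (0.78), whereas WRKY53 was at 6.50 and 6.52 in Col-0 and at 6.45 and 6.67 in npr1-1, with overlapping arrays. The kinase gene BIK1, which relays signals from pattern receptors, was at 6.36 and 6.40 in Col-0 and at 5.30 and 4.995 in npr1-1. It was 1 of only 2 of the 165 receptor kinase and receptor-like genes that could be named. The other, the bacterial EF-Tu receptor gene EFR, was not called (difference 0.25, adjusted p = 0.32).

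Small secreted proteins were mixed. Of 25 measured genes among defensins, thionins, RALF peptides and similar families, 3 were higher and 5 lower, against 13.1% and 10.7% of all genes. Their median difference was -0.03. PDF1.4 stood out with its difference of -4.34. RALFL32, of the RALF family of growth-regulating peptides, was at 3.92 and 3.84 in Col-0 and at 5.90 and 5.97 in npr1-1 (difference 2.05, SE 0.11). LCR68 was higher by 0.99, and LCR67 (-0.88), PDF2.5 (-0.55) and RALFL18 (1.38 and 1.48 against 0.19 and 0.47) were lower from dim Col-0 levels.

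**Figure D3:**
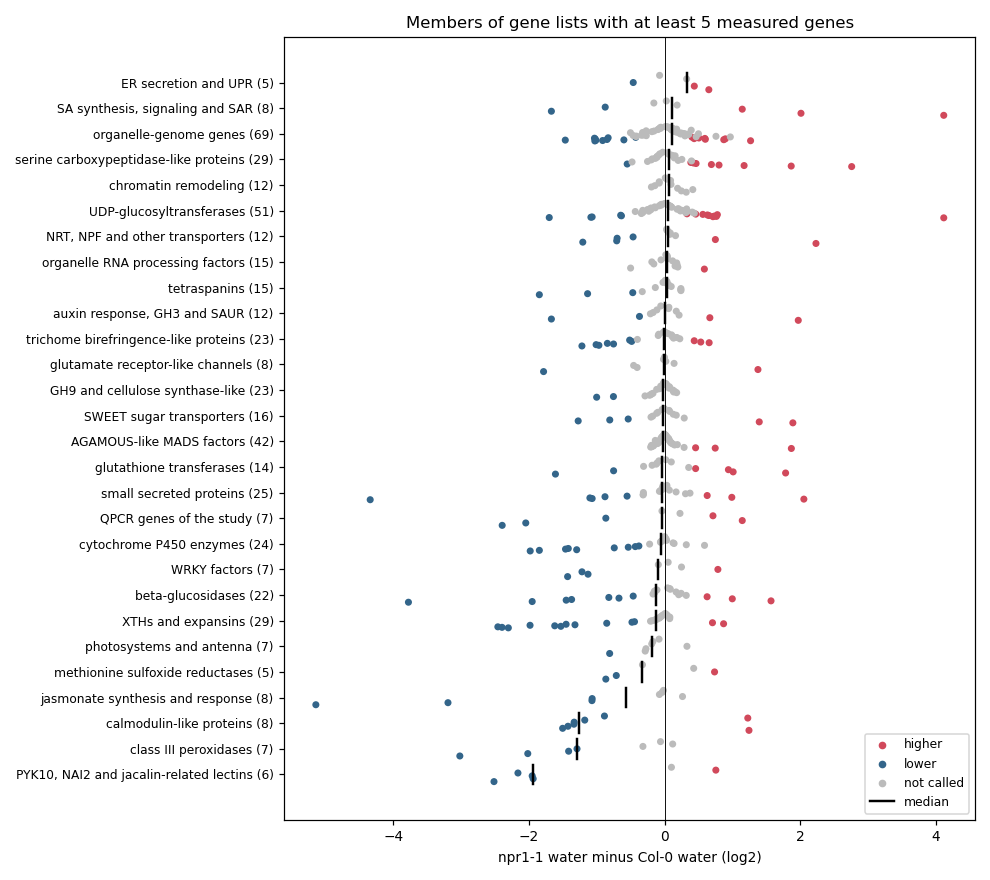
Log2 differences (npr1-1 water minus Col-0 water, x axis) of the measured members of the gene lists with at least 5 measured genes are shown, with 1 point per gene, red for higher, blue for lower and grey for not called, a black bar at each median and the number of measured genes in brackets. The median lies furthest left for PYK10, NAI2 and jacalin-related lectins (-1.94), a group picked after the value of PYK10 was seen. Peroxidases (-1.29), calmodulin-like proteins (-1.26) and jasmonate genes (-0.57) also have medians left of 0. Most lists have medians near 0 with single genes far out on either side.

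All 8 measured calmodulin-like genes were called, 6 lower and 2 higher, against 23.8% of all genes, and the family was looked at because of its number of measured members. The 5 with a mean of at least 3 over the 8 arrays were all lower, against 23.7% of all genes at that level. Calmodulin-like proteins bind calcium and pass calcium signals on. CML38 was at 7.22 and 7.38 in Col-0 and at 5.75 and 5.84 in npr1-1 (difference -1.50, SE 0.14, adjusted p = 1.1e-05). CML37, linked to jasmonate responses to herbivores, was at 6.14 and 6.25 in Col-0 and at 4.82 and 4.89 in npr1-1. CML41 was at 6.36 and 6.45 in Col-0 and at 5.35 and 5.10 in npr1-1. Together with CML23 (-1.42), CML42 (-1.33) and AT1G76640 (-0.89), they were lower on both mutant arrays, and the median difference of the 8 genes was -1.26. The exceptions, CML30 (1.31 and 1.25 against 2.51 and 2.53) and CML43 (0.90 and 1.33 against 2.33 and 2.35), were dim in the wild type and higher in the mutant. Glutamate receptor-like channels, which also carry calcium, gave 1 higher and 1 lower gene among 8, near the 13.1% and 10.7% of all genes. GLR2.7 was higher by 1.37 and ATGLR1.2 lower, with a difference of -1.78. Without either Col-0 SA array the count of lower channel genes was 3.

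Cell wall genes were lower more often than higher. Xyloglucan endotransglucosylases (XTH) and expansins loosen the wall during growth, and of 29 measured genes 11 were lower and 2 higher, against 10.7% lower and 13.1% higher among all genes. XTH18 was at 8.18 and 8.17 in Col-0 and at 5.79 and 5.95 in npr1-1 (difference -2.30, SE 0.12, adjusted p = 1.1e-07). XTH33 was at 3.73 and 3.27 in Col-0 and at 1.06 and 1.03 in npr1-1. XTH19 was at 2.95 and 3.11 in Col-0 and at 0.74 and 0.53 in npr1-1. The expansin-like genes followed in the same direction. EXLA1 was at 7.88 and 7.76 in Col-0 and at 6.44 and 6.55 in npr1-1, and EXLA2, EXLA3 and EXLB1 had differences of -1.53, -1.45 and -1.98. XTH20 (-1.62) and EXGT-A3 (-0.85) were also lower, and XTH32 (0.87) and EXPA8 (0.70) were the higher ones. All 5 members with a mean of at least 3 over the 8 arrays were lower, against 23.7% of all genes at that level. The 16 uncalled members had Col-0 means of 0.27 to 1.37, and the median difference of the list was -0.13.

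Class III peroxidases, which oxidize phenolics in the wall, gave 4 lower genes and none higher among 7, where 10.7% of all genes were lower. PRX52, which takes part in lignin formation, was at 3.90 and 3.86 in Col-0 and at 1.06 and 0.66 in npr1-1. AT5G64120 was at 10.39 and 10.53 in Col-0 and at 8.62 and 8.27 in npr1-1. Prx37 was at 4.92 and 5.14 in Col-0 and at 3.57 and 3.66 in npr1-1. Thus both dim and very bright peroxidase genes were lower in the mutant, and the median difference was -1.29. Trichome birefringence-like proteins, of which many acetylate wall polysaccharides, gave 7 lower and 3 higher genes among 23, against 10.7% and 13.1% of all genes. TBL38, TBL25 and TBL41 had differences of -1.22, -1.01 and -0.97. The count of lower members fell when single arrays were left out. The 3 higher members were TBL32, TBL26 and TBL35, and without npr1-1 water replicate 2 none of them was called, while 1 was called without either Col-0 water array. Among 23 GH9 cellulases and cellulose synthase-like genes 2 were lower and none higher, against 10.7% and 13.1% of all genes. The lower ones were CSLD2 (6.44 and 6.64 against 5.65 and 5.42) and CSLC04 (5.91 and 5.63 against 5.23 and 4.80).

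Beta-glucosidases release hormones and defense compounds from their sugar conjugates, and 7 of 22 were lower and 3 higher, the latter near the 13.1% of all genes and the former above the 10.7%. Some fits with a single array left out called fewer of them lower. Besides BGLU46, BGLU45 was lower (-1.45) from Col-0 levels of 2.44 and 2.37, and BGLU16 was at 6.87 and 7.01 in Col-0 and at 5.47 and 5.67 in npr1-1. PYK10, the main beta-glucosidase of ER bodies in seedlings and roots, was at 7.49 and 7.71 in Col-0 and at 5.75 and 5.54 in npr1-1. BGLU33 was higher, at 1.101 and 1.02 in Col-0 and at 2.50 and 2.76 in npr1-1. Genes that work with PYK10 were therefore looked up after its value was seen, so their counts are a description only. NAI2, which is needed to form ER bodies, was at 6.09 and 6.03 in Col-0 and at 4.09 and 3.70 in npr1-1. The jacalin-related lectin genes JAL33 (5.56 and 6.11 against 3.39 and 3.25) and JAL34 (6.78 and 6.82 against 4.78 and 4.94) were lower as well. JAL22 was higher (difference 0.75), a call lost without replicate 1 of either genotype in water.

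UDP-glucosyltransferases attach sugars to hormones and secondary metabolites, and 10 of 51 measured genes were higher and 5 lower, against 13.1% and 10.7% of all genes. The count of higher genes was 5 without Col-0 water replicate 1 and 6 without npr1-1 water replicate 1, so that neither direction stood clear of the share among all genes. UGT76B1 was by far the highest, since the next were UGT73B4 (0.78), UGT84A3 (0.76), GT72B1 (0.73) and UGT74D1 (0.71). UGT85A2 was lower, at 5.43 and 5.58 in Col-0 and at 3.84 and 3.77 in npr1-1, and UGT71C2 and UGT72E1 had differences of -1.09 and -1.07. IAGLU, which joins glucose to the auxin indole-3-acetic acid, was not on this list under its symbol and was at 2.77 and 2.65 in Col-0 and at 5.10 and 5.17 in npr1-1 (difference 2.42, SE 0.12).

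The P450 enzymes that could be named were mostly of the CYP71B group (19 of 24), which act on varied small molecules. Of these, 9 were lower and none higher, where 10.7% of all genes were lower, and none of the other 5 was called. When single arrays were left out, some fits called fewer of the 24 lower, and the higher calls also changed. CYP71B6, which converts an indole nitrile, was at 8.13 and 7.75 in Col-0 and at 6.67 and 6.36 in npr1-1. CYP71B23 was at 6.91 and 6.61 in Col-0 and at 5.43 and 5.16 in npr1-1. CYP71B24 was at 3.82 and 3.70 in Col-0 and at 1.92 and 1.64 in npr1-1. With CYP71B26 (-1.85) and CYP71B29 (-1.30), these were lower on both mutant arrays, and 15 of the 19 genes lie on chromosome 3. Near-identical copies can share probe signal, so their number is uncertain as a count of separate changes.

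Glutathione transferases and other redox genes went both ways. Among 14 glutathione transferase genes 4 were higher and 2 lower, against 13.1% and 10.7% of all genes. GSTU25 was at 0.30 and 0.53 in Col-0 and at 1.99 and 2.40 in npr1-1, and GSTU18 was at 4.08 and 3.88 in Col-0 and at 2.31 and 2.44 in npr1-1. Methionine sulfoxide reductases, which repair oxidized methionine, gave 2 lower and 1 higher gene among 5, against 10.7% and 13.1% of all genes. MSRB9 was at 7.49 and 7.55 in Col-0 and at 6.51 and 6.79 in npr1-1, MSRB5 had a difference of -0.71 and MSRB3 one of 0.74. The count of higher genes was 2 without Col-0 water replicate 1 or without either Col-0 SA array. Among 15 tetraspanins, membrane proteins of vesicles, 3 were lower and none higher, against 10.7% and 13.1% of all genes. TET3 had the largest fall of these (6.39 and 6.48 against 4.80 and 4.38).

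Sugar and nitrogen transporter genes went both ways, and serine carboxypeptidase-like genes were mostly higher where called. SWEET11, a sucrose exporter of phloem loading, was at 7.56 and 7.43 in Col-0 and at 8.93 and 8.85 in npr1-1 (difference 1.39, SE 0.13, adjusted p = 8.3e-06). SWEET4, a hexose transporter, was at 0.67 and 0.49 in Col-0 and at 2.67 and 2.26 in npr1-1. SWEET16, of the vacuole, was lower, at 4.49 and 3.89 in Col-0 and at 2.72 and 3.11 in npr1-1. Of 16 SWEET genes 2 were higher and 3 lower, against 13.1% and 10.7% of all genes, and 1 was lower without replicate 2 of either genotype in water. NRT2.5, a high-affinity nitrate transporter of nitrogen-starved plants, was at 1.19 and 1.02 in Col-0 and at 3.15 and 3.52 in npr1-1. Among 12 nitrate, peptide, ammonium and phosphate transporter genes it was 1 of 2 that were higher, against 13.1% of all genes. Of the 12, 4 were lower, against 10.7% of all genes, among them the glucosinolate transporter genes GTR2 (-0.71) and GTR1 (-0.47). Without replicate 1 of either genotype in water 2 were lower. Serine carboxypeptidase-like genes gave 8 higher and 1 lower among 29, against 13.1% and 10.7% of all genes. The largest difference was that of scpl46, at 1.84 and 1.96 in Col-0 and at 4.53 and 4.78 in npr1-1. Then came scpl35 (1.86), SCPL45 (1.17) and scpl29 (0.80), and without Col-0 water replicate 1 there were 5 higher genes.

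Auxin genes showed no common direction, with 2 higher and 2 lower among 12 measured, against 13.1% and 10.7% of all genes. GH3.3, which conjugates auxin to amino acids, was at 3.37 and 3.05 in Col-0 and at 5.08 and 5.27 in npr1-1 (difference 1.97, SE 0.14), opposite to its relative WES1. GH3.17 was higher by 0.67, and IAA34 was lower by 0.37 in size, a call lost without any 1 of the water arrays. In the AGAMOUS-like family of MADS factors 3 of 42 were higher and none lower, against 13.1% and 10.7% of all genes. AT1G30260, listed as AGL79, was at 2.95 and 3.48 in Col-0 and at 5.05 and 5.12 in npr1-1, while 35 of the 42 had means under 1 over the 8 arrays.

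Nuclear photosynthesis genes differed little. Of 7 measured genes PSAN, a subunit of photosystem I, was called, at 9.14 and 9.05 in Col-0 and at 8.27 and 8.30 in npr1-1. The antenna gene LHCB4.1 was at 8.96 and 9.06 in Col-0 and at 8.82 and 8.63 in npr1-1, a difference of -0.29 that was not called. Without npr1-1 water replicate 1, 1 gene of this list was called higher. Plastid genes went both ways at about the frequency of all genes (13.1% higher and 10.7% lower), with 9 higher and 10 lower among 69. Several called genes are neighbors on the plastid genome. The overlapping photosystem II genes psbD (3.73 and 3.40 against 2.66 and 2.45) and psbC (5.82 and 6.20 against 5.24 and 4.95) were both lower, as were psbE, psbF and psbL. The adjacent polymerase genes rpoC1 (0.40) and rpoC2 (0.43) and the adjacent ATP synthase genes atpF (0.45) and atpH (0.87) were higher, and ndhJ was at 5.81 and 6.16 in Col-0 and at 7.18 and 7.31 in npr1-1. These counts depended on single arrays. The lower genes numbered 5 without Col-0 water replicate 2 and 6 without npr1-1 water replicate 2, and the higher ones 5 without Col-0 water replicate 1 and 3 without npr1-1 water replicate 1. On npr1-1 water replicate 2 the 3′ actin control exceeded the 5′ one by 6.07, against 3.32 to 4.09 on the other water arrays, and 5 of the 10 lower plastid genes were over 0.5 lower there than on replicate 1. The same count over all 69 plastid genes was not made. The study's methods primed labelling with oligo(dT), and how well that captures plastid RNA was not tested. The part of RNA quality in these values was not tested either.

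The remaining lists held few measured or few called genes. In the ER secretory pathway the calreticulin gene CRT1b was higher (6.07 and 6.08 against 6.75 and 6.70), AT5G07340 was higher by 0.44 and the stress factor gene BZIP60 had a difference of -0.46. The last 2 calls were lost without replicate 1 of either genotype in water, and that of AT5G07340 also without npr1-1 water replicate 2. Of 3 hypoxia genes AT4G10270 was higher (1.28) and the pyruvate decarboxylase gene PDC2 lower (-0.99), and of 4 dehydration and cold genes the dehydrin COR47 was lower (7.85 and 8.01 against 7.20 and 6.93). Of 4 glucosinolate genes AT2G31790 was higher by 0.43, and this call was lost without any 1 of the 4 water arrays or of the npr1-1 SA arrays. It was also lost with the replicate block (adjusted p = 0.0676), quantile normalization (0.0886), median centring (0.0883) and a trended variance (0.0862). The DNA replication gene PRL was higher (1.16 and 1.20 against 2.58 and 2.30), and the clock gene GI lower (-0.62, a call lost without replicate 1 of either genotype in water). Of 4 epidermis and guard cell genes AT1G22690 was higher (5.56 and 5.24 against 7.68 and 7.74). Of 15 organelle RNA processing factors CRR42 was higher by 0.59, a call lost without either Col-0 water array or npr1-1 water replicate 2. None of 12 chromatin genes, 2 sulfur deficiency genes, 2 root genes or 4 flower and pollen genes was called, nor was the single heat shock (ATHSP22.0, 0.30) or senescence gene (SAG29, -0.20), and no vascular gene was measured.

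Of the 18 genes whose transcripts the study followed by quantitative PCR, 7 were measured here. Of these, 2 were higher and 3 lower, against 13.1% and 10.7% of all genes. AT5G38700 was at 4.18 and 4.29 in Col-0 and at 1.84 on both npr1-1 arrays. AT1G05700 was at 2.60 and 2.49 in Col-0 and at 0.73 and 0.28 in npr1-1. AT1G66100 was higher (5.38 and 5.40 against 6.09 and 6.12), as was GRX480, and MSRB9 was lower. The study chose these genes on these samples, so their counts are not independent evidence.

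Some genes went from near the lower end of the scale in a genotype to a clear signal in the other. Under 1 on both arrays of a genotype and at least 3 on both of the other were 3 genes that were higher in npr1-1 (AT5G44570, AT1G24575 and AT5G38910) and 5 that were lower (AT5G19890, AT5G23830, AT4G30170, AT2G43610 and AT2G22760). AT5G44570 was at 0.41 and 0.46 in Col-0 and at 3.96 and 4.38 in npr1-1. AT4G30170 was at 3.24 and 3.36 in Col-0 and at 0.47 and 0.48 in npr1-1. The calls were spread over the genome. On chromosomes 1 to 5, between 11.48% and 14.9% of the genes were higher and between 9.15% and 12.7% lower, with chromosome 3 holding the highest share of higher and chromosome 1 that of lower genes.

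The same genes on the SA arrays place the water difference. UGT76B1 was at 9.57 and 9.75 in Col-0 SA and at 3.01 and 2.92 in the arrays labelled npr1-1 SA. AT3G28510 was at 6.43 and 6.16 in Col-0 SA and at 0.07 and 0.40 in npr1-1 SA. Both therefore stood higher in npr1-1 in water and lower in npr1-1 under SA. Of all 22746 probe sets, 8945 were called between the genotypes under SA, and the share in each direction was not counted. Of the 12 largest rises, 11 were called with the opposite sign under SA, and AT1G67865 was called higher there too. Of the 12 largest falls, 7 were also called lower under SA and 3 were called higher. JRG21 belonged to the 7, at 7.54 and 7.41 in Col-0 SA and at 2.69 and 2.56 in npr1-1 SA, and AT2G38240 was also far lower in npr1-1 there (4.92 and 4.86 against 2.53 and 2.04). JRG21 and AT2G38240 were thus low on all 4 arrays labelled npr1-1 and high on all 4 labelled Col-0. PYK10 was not, being at 4.83 and 4.97 in Col-0 SA and at 7.08 and 7.29 in npr1-1 SA, and NAI2 was likewise higher in npr1-1 there (4.26 and 4.41 against 5.45 and 5.74).

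**Figure D4:**
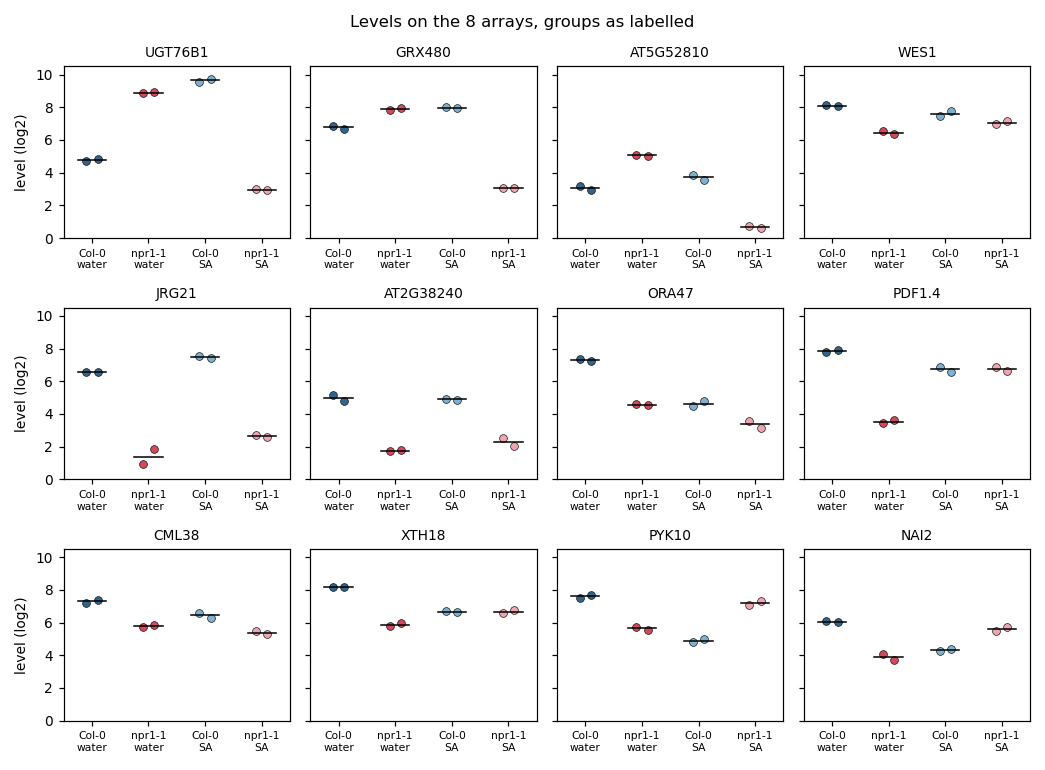
Log2 levels of 12 genes on all 8 arrays are shown by labelled group, with 1 point per array and a bar at each mean of 2 arrays. UGT76B1, GRX480 and AT5G52810 are higher in npr1-1 in water and lower under SA, JRG21 and AT2G38240 are lower in npr1-1 under both treatments, and PYK10 and NAI2 are lower in npr1-1 in water and higher under SA.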

How the data were processed

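Each array came as log2 values, 1 for every probe set, which the authors had already background-corrected, normalized and summarized. RMA in affylmGUI, after GCOS, is named by the study's methods, and Affymetrix Expression Console by the submitters' processing notes; versions are not given in the sources used here. No value was missing, and values on the water arrays ran from -0.13 to 11.51. Precision is limited by having 2 arrays per group.

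The 64 control probe sets were left out and the other 22746 were tested. Of these, 13513 have 1 gene symbol in the platform annotation, 503 several and 8730 none listed; a TAIR10.1 gene table held 13436 of the 13513. For the 146 genes that several probe sets measure, the brightest was used. NPR1 and PR1 are not analysed here. Promoter motifs and sequences were left out too, as no sequence table was used.

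A linear model with a mean for each of the 4 groups, over all 8 arrays, was run in limma 3.58.1 (R 4.3.3) with moderated variances and no trend; statmod 1.5.0 served the robust alternative. The p-values were adjusted by Benjamini and Hochberg over all probe sets and called under 0.05. The fit was tested on simulated data. The genes named are the 12 highest and 12 lowest called genes with arrays apart, the 4 members of each of 42 gene lists with the smallest adjusted p, genes under 1 in one genotype and at least 3 in the other, and the genes of the study's quantitative PCR; the 15 highest and 15 lowest genes with a descriptive name, some further list members, 13 families picked by their number of measured members and the PYK10 group were added after the values were seen. Members and lists were chosen with earlier results of these data known. Alternatives were the 4 water arrays alone, quantile normalization, a block for replicate number, median centring, a filter on dim probe sets, other variance models, an unadjusted p, each array left out, and all probe sets of a gene.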

Additional observations from a re-analysis of the deposited data

Results flagged for a closer look

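The genotype difference under SA differed from that in water (limma's interaction, adjusted p under 0.05) for 7274 of the 22746 probe sets, and for 23 of the 24 genes with the largest differences in water. The values here are the difference under SA minus that in water, in log2, and both differences rest on the labels of the npr1-1 arrays. The 24 genes were picked by their water difference, which is subtracted in this value. Their calls and signs are therefore partly set by that choice. For the genes that were higher in npr1-1 in water they were -12.13 for AT3G28510, -12.55 for AT5G03350, -9.07 for AT1G19960, -6.55 for AT5G55450, -10.81 for UGT76B1, -8.23 for AT2G32160, -5.84 for AT5G52540, -2.76 for AT1G67865, -4.58 for AT5G44570, -5.44 for AT1G49750, -4.32 for AT1G17430 and -5.49 for AT5G51830. For those that were lower in npr1-1 in water they were 3.16 for AT4G22470, 6.74 for AT5G19890, 4.65 for AT1G26390, 6.80 for AT4G22212, 3.54 for AT3G61390, 4.35 for PDF1.4, 4.00 for AT2G47550, 2.69 for AT4G16260, 1.87 for AT1G14550, 5.24 for AT1G62510 and 2.77 for BGLU46. The gene without such a call, JRG21, had a value of 0.29, which was called without npr1-1 water replicate 2 (0.73, adjusted p = 0.015).

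Control probe sets, which entered no test, also stood apart. Both 3′ actin control probe sets were higher on the npr1-1 water arrays, by 0.71 (7.32 and 7.30 in Col-0, 7.99 and 8.04 in npr1-1) and by 0.75 (8.13 and 8.20 against 8.94 and 8.88), and a 3′ GAPDH control by 0.61 (7.26 and 7.28 against 7.74 and 8.02). The 25S rRNA control was at 8.20 and 8.30 in Col-0 and at 7.76 and 7.59 in npr1-1.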

How the results depend on the processing

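Without moderation of the variance, 3607 probe sets were called (1823 higher and 1784 lower), against 6134 (3238 and 2896), and the cause was not tested. With each array left out in turn the calls ran from 4512 to 6179, those higher from 2337 to 3265 and those lower from 2175 to 2914. Those higher by at least 1 ran from 812 to 862 and those lower by at least 1 from 996 to 1098, and the calls for the difference between treatments from 6321 to 6707. The other settings gave 5933 to 7951 calls. Median centring moved the share of calls that were higher from 52.8% to 46.2%. Replicate numbers did not pair the arrays (correlation of the deviations in water -0.08), and the fit with the replicate block gave 5943 calls. Of 136 called genes named by rule, none changed sign, 18 lost the call under some alternative and 9 did so without counting the fit with no moderation. Besides single arrays and missing moderation, calls were lost with the replicate block (IAA34 and AT2G31790), the water arrays alone (IAA34), quantile normalization (BZIP60, CRR42 and AT2G31790), median centring (AGL62 and AT2G31790), a trended variance (AT5G07340 and AT2G31790) and without both npr1-1 SA arrays (AT2G31790). None of the 50 genes picked by size of difference, among all genes or among those with a descriptive name, lost it. Without both npr1-1 SA arrays, a setting added after the values were seen, 5981 probe sets were called. The difference between treatments could not be fitted on the water arrays alone. Values near the lower end of the scale limit what dim genes can show.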
